A study of Mus musculus with 24 samples.

Results

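Cell cycle and DNA replication genes were followed in nuclear RNA of astrocytes sorted from the dorsal horn of the mouse spinal cord during the first postnatal weeks. The set was a list of 50 named genes, looked up by symbol in 4 deposited expression tables, and all 50 were found in at least 1 table, out of 15709 genes listed in any of them. By role, 26 members act in mitosis, 11 in DNA replication and its licensing, and 13 in control of the passage from G1 to S phase. Of the 50, the table for P4 held 48 members (Aurka and Cdkn2c not listed), that for P10 held 45 (Bub1, Kif23, Mcm2, Gmnn and Cdkn2c not listed), that for P24 held 48 (Bub1 and Ube2c not listed) and that of age in naive mice held 49 (Bub1 not listed), and 43 were in every table. The authors had kept genes that passed a minimum level and a maximum spread in at least 1 group, and 46 of the 49 members of the age table met both limits in P10 or P24. The remaining 3, Aurkb, Kif23 and Ube2c, met them through P4 alone, so their fall from P4 carries no weight and the counts of called members are also given without them.

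The study asked which transcripts change in spinal astrocytes after an early injury and which change as naive mice grow. All mice had the genotype Aldh1l1-creERT2(+/-); R26-LSL-Sun1.GFP(+/-), controls included. In this cross a tamoxifen-inducible Cre driven by the promoter of the astrocyte gene Aldh1l1 switches on a GFP-tagged protein of the nuclear envelope, so that nuclei of cells that had Cre activity can be sorted. Incised mice had a cut in 1 hindpaw at P3 (postnatal day 3), and naive mice had isoflurane anaesthesia only. Ipsilateral dorsal horn of lumbar segments L3 to L5 was taken at P4, P10 or P24, which is 1, 7 or 21 days after P3, GFP-positive nuclei were sorted, and 1 library was made per mouse. The groups were P4 naive (n = 4), P4 incised (n = 4), P10 naive (n = 3), P10 incised (n = 3), P24 naive (n = 4) and P24 incised (n = 4), each of both sexes. Another 2 of the 24 libraries, for which title and characteristics give different groups, entered no comparison.

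Cells divide when D-type cyclins with CDK4 and CDK6 inactivate the retinoblastoma protein, which frees E2F factors to switch on genes for cyclin E, the MCM helicase and nucleotide synthesis. Genes of mitosis follow later, through the DREAM and MYB-MuvB complexes, which bind the CHR element of their promoters, often next to CCAAT boxes bound by NF-Y. Astrocytes of the rodent cord are known to divide locally after birth and to leave the cycle over the following weeks.

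The sorted nuclei carried the label's markers: all 10 astrocyte marker genes were in every table and none was at 0 in any library, with summed normalized expression from 66829 to 129570 over the naive libraries of the age table. Markers of other cell types were present too. Those of neurons summed to 4008 to 10588 in the same libraries. At P24 those of oligodendrocytes (84487 to 97360) reached sums near the astrocyte ones (86377 to 129570). Within a group, libraries had pairwise rank correlations over genes (Spearman) of 0.924 to 0.960 in P4 naive, 0.824 to 0.874 in P4 incised, 0.880 to 0.914 at P10 and 0.957 to 0.977 at P24. Values are the authors' normalized expression, each table scaled on its own, and sequencing depth is unknown. One library stood apart for the cell cycle genes, P4 naive male 2, and values that move with it are given with and without it.

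Promoters of called mitosis and replication members with the lowest p between P24 and P4, among those in the RefSeq table, are shown. All of these genes were called lower at P24 than at P4, as described below, but Plk1 and Rrm1 were not called at P10. Windows run from 250 bases before to 50 bases after the annotated start (RefSeq, GRCm38.p6), 5′ to 3′ along the gene's strand. Capitals mark matches, on either strand, to CCAAT (the NF-Y box), TTTGAA (the CHR) and the E2F word TTGGCGC together with its variants TTGCCGC as well as TTCGCGC and also TTCCCGC. The mitosis members are Cenpf (chr1:189688037-189688336 on the minus strand), a kinetochore protein, Mki67 (chr7:135716330-135716629 on the minus strand), the chromosome surface protein Ki-67, Plk1 (chr7:122159185-122159484 on the plus strand), a mitotic kinase, and Cenpe (chr3:135212313-135212612 on the plus strand), a kinetochore motor. The replication members are Mcm6 (chr1:128359656-128359955 on the minus strand) and Mcm3 (chr1:20820263-20820562 on the minus strand), subunits of the MCM helicase, and Rrm1 (chr7:102441445-102441744 on the plus strand), the large subunit of ribonucleotide reductase. Their sequences follow.
Cenpf: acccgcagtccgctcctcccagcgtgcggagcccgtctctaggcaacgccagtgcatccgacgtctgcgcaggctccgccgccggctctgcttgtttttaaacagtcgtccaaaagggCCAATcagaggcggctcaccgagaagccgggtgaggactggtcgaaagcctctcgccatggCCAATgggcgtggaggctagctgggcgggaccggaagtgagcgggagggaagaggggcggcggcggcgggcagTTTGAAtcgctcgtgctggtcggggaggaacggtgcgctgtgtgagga
Mki67: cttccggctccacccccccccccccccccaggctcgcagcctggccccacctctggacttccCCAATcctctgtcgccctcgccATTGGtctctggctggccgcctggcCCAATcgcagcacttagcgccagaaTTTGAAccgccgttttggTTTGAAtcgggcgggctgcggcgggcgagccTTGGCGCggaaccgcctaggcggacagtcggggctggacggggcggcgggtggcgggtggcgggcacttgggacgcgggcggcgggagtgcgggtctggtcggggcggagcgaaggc
Plk1: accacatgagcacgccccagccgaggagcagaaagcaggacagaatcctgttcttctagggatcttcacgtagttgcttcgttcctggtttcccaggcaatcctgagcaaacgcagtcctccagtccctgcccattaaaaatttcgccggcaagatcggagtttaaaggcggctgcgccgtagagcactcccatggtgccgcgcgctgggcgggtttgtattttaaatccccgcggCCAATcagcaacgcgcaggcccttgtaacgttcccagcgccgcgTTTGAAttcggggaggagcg
Cenpe: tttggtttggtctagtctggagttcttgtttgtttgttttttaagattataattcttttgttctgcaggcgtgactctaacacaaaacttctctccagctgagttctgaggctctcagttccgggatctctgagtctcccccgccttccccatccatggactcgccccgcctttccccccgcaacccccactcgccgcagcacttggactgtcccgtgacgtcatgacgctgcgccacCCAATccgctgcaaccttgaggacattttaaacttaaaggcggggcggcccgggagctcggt
Mcm6: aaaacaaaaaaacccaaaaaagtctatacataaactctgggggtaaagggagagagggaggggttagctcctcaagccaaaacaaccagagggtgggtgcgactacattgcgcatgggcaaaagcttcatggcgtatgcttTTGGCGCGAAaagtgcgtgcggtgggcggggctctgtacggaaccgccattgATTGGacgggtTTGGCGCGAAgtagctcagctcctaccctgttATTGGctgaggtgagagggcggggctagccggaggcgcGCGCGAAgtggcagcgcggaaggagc
Rrm1: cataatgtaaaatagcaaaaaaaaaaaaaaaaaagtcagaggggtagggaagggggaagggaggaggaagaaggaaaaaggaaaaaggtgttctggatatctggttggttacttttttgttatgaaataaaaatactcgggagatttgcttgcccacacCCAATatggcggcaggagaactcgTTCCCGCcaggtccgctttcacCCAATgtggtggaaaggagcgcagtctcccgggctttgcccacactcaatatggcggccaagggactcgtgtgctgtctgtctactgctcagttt
Mcm3: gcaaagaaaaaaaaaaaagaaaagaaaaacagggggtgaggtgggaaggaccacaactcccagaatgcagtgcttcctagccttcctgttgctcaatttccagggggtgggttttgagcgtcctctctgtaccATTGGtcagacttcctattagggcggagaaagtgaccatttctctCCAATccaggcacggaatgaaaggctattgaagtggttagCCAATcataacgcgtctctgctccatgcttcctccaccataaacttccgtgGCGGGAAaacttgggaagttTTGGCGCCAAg

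The windows differed by role in the words they held. Of 50 members, 39 matched the RefSeq table by symbol, and Tpx2, Ccna2, Aurkb, Kif20a, Smc4, Mcm4, Gmnn, Ccnd1, Ccnd2, Ccne2 and Rb1 were not in it. The CHR word was in 16 of 21 mitosis windows (76.2%), in 1 of 9 replication windows (11.1%) and in 0 of 9 windows of G1/S genes, against 17.9% of all 32851 windows of the table. An E2F word was in 6 of 9 replication windows (66.7%), 4 of 21 mitosis windows (19.0%) and 3 of 9 G1/S windows (33.3%), against 9.57% of all windows. CCAAT was in 19 of 21 mitosis windows (90.5%), 8 of 9 replication windows (88.9%) and 3 of 9 G1/S windows (33.3%), against 37.4% of all. Among the printed windows, Mki67 held all 3 kinds of word, with 3 CCAAT boxes, 2 CHR words and 1 E2F word. Mcm6 held 5 E2F matches, of which 2 pairs overlap on opposite strands, and Mcm3 held 3 with 3 CCAAT boxes. A match is a description of the letters and not a site of binding.

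Between P4 and P10 in naive mice, many genes of mitosis and of the replication helicase fell. Of 49 members tested, 23 were lower at P10 and 1 was higher by limma (adjusted p under 0.05), which is 49.0% of the members, while 13.7% of all 14982 genes tested were called, 6.53% lower and 7.15% higher. Without Aurkb, Kif23 and Ube2c, 21 of 46 were lower and 1 higher. The median log2 change of the members was -1.30 (-1.17 without those 3), and that of all genes -0.02. In 17 members, Kif23 and Ube2c among them, every P10 library lay below every P4 library and in 1 above. Of all genes, 8.84% were lower in this sense and 10.8% higher. The 3 comparisons between ages share their groups, so their values are not independent. In bulk samples, fewer dividing cells and less RNA of these genes per cell cannot be told apart. Summed markers of immature progenitors (9 of 10 genes listed, none at 0 in any library) moved in the same direction, from 13989 to 21926 at P4 through 9341 to 11888 at P10 to 2270 to 3963 at P24, and their part in the result was not tested. Summed markers of oligodendrocyte precursors (10 of 10 listed, none at 0), another dividing cell type of the cord, ran from 2110 to 2343 at P4, from 1947 to 2870 at P10 and from 5713 to 7298 at P24. Those of oligodendrocytes (10 of 10 listed, none at 0) ran from 1330 to 2559 at P4, from 12585 to 20968 at P10 and from 84487 to 97360 at P24 in these sorted nuclei.

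**Figure D1:**
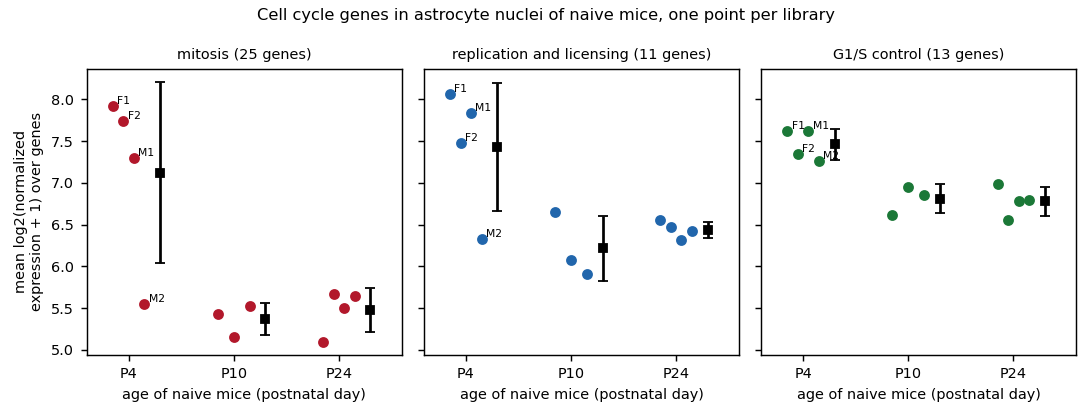
Mean of log2(normalized expression + 1) over the mitosis, replication and G1/S members (y axis) in each naive library at P4 (n = 4), P10 (n = 3) and P24 (n = 4); squares with bars are mean ± SD over libraries. The mitosis mean was 7.92, 7.74 and 7.29 in 3 of the P4 libraries and 5.55 in P4 male 2, which lay close to the P10 and P24 libraries (5.10 to 5.67).

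The library P4 naive male 2 stood apart from the other P4 naive libraries in mitosis and replication genes. Its mean log2 level was 5.55 for mitosis members, where the other P4 naive libraries had 7.29 to 7.92, and 6.33 for replication members, where they had 7.48 to 8.06. For the G1/S members it had 7.26, and the others had 7.34 to 7.62. Its summed progenitor markers were the lowest of the P4 naive libraries (13989, with 18290 or more in the others). Its summed astrocyte markers were also the lowest (66829, with 76490 to 84181 in the others). Its summed neuron markers were the highest (7111, with 5517 to 6928 in the others). The part of these 3 sums in the result was not tested. Without this library, 35 members were called between P10 and P4 (22 of them among the 24 called with it), all 35 lower, with 12.1% of all genes called. Between P24 and P4 it was 36 (24 of them among the 25), with 17.3% of all genes called. The members added to both were Birc5, Ect2, Kif20a, Pcna, Prc1, Rrm2, Top2a and Tyms. Kif23 and Ube2c, kept through P4 alone, are among the 35 and among the 36. The library was singled out by its low values for these same members, so leaving it out raises their P4 level. Calls gained in this way, here and below, show how far the counts rest on it and carry no weight for a fall.

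Mki67 (chromosome 7, 135689784 to 135716361, minus strand, GRCm38), whose protein Ki-67 marks cycling cells, had normalized expression of 628, 530, 348 and 100.5 in the P4 libraries, 55.3, 63.0 and 77.6 at P10, and 70.2, 90.7, 59.7 and 68.8 at P24. Every P4 library was above every later one, and the P10 and P24 libraries overlapped. The log2 change was -2.43 (SE 0.42, limma adjusted p = 0.000915) from P4 to P10 and -2.19 (SE 0.38, adjusted p = 0.00048) from P4 to P24. From P10 to P24 it was 0.25 (SE 0.42, adjusted p = 0.763), and the groups overlapped.

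Among the other mitosis members, 13 fell by P10, or 11 without Kif23 and Ube2c. Cdc20, an activator of the ubiquitin ligase that ends mitosis, was at 191, 210.3, 147 and 16.8 at P4 and at 2.20, 9.05 and 2.66 at P10 (log2 change -4.52, SE 0.71, limma adjusted p = 0.000527). Its values were low in all 3 P10 naive libraries, below the lowest P4 library. The library titled P10 incision but P10 naive by its characteristics, left out here, was at 30.8, above that P4 library. Tpx2, a spindle assembly factor, had a log2 change of -2.83 (SE 0.50, adjusted p = 0.00132), and its P4 libraries at 598, 585, 385 and 90.1 all exceeded the P10 libraries at 35.8, 46.8 and 67.9. Smc4, a condensin subunit that compacts chromosomes, fell by 1.32 on the log2 scale (SE 0.23, adjusted p = 0.000593), from 623, 659, 552 and 392 to 202, 169 and 299. The kinetochore genes Cenpe and Cenpf had log2 changes of -2.32 and -1.75, the cyclin genes Ccnb2, Ccnb1 and Ccna2 of -2.92, -2.39 and -0.93, and Cdk1, their kinase partner, of -1.91. The spindle genes Kif11, Kif23 and Nusap1 had changes of -1.78, -2.64 and -1.57, and Ube2c, the ubiquitin-conjugating partner of Cdc20's ligase, of -3.15 with 1 P10 library listed at 0. Top2a, the topoisomerase that untangles chromosomes, did not pass: its P4 libraries were at 691, 406, 525 and 46.7 and its P10 libraries at 214, 56.9 and 114 (log2 change -1.46, SE 0.91, adjusted p = 0.348), with the groups overlapping through P4 male 2. Without that library its log2 change was -2.23 (SE 0.39, adjusted p = 0.00117). The other members that did not pass were Plk1, Aurka, Aurkb, Bub1b, Birc5, Prc1, Ect2, Hmgb2, Kif20a and Smc2, with log2 changes from -2.61 to -0.36, all negative.

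Of the 11 replication members, 5 subunits of the MCM helicase fell by P10 and the other members did not pass. Mcm6 was at 705, 465, 678 and 299.7 at P4 and at 203, 186 and 85.9 at P10 (log2 change -1.87, SE 0.27, limma adjusted p = 6.56e-05), with no overlap. Mcm2 was at 118, 79.1, 225 and 50.5 at P4 and at 21.9, 11.3 and 5.31 at P10 (log2 change -3.12, SE 0.50, adjusted p = 0.000232), also with no overlap. For Mcm2 the library titled P10 incision but P10 naive by its characteristics, left out here, was at 50.5, level with the lowest P4 library. Mcm3 and Mcm5 had log2 changes of -1.62 and -1.84, and Mcm4 one of -1.004. The remaining subunit gene Mcm7 was just outside the threshold (log2 change -0.93, SE 0.32, adjusted p = 0.0549). Pcna, the sliding clamp of DNA polymerase, had 528, 377, 361 and 204 at P4 and 220.5, 245 and 281 at P10 (log2 change -0.51, SE 0.25, adjusted p = 0.187), and its groups overlapped. The nucleotide synthesis genes Rrm1, Rrm2 and Tyms and the licensing inhibitor gene Gmnn had log2 changes from -1.39 to -0.36 that did not pass.

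**Figure D2:**
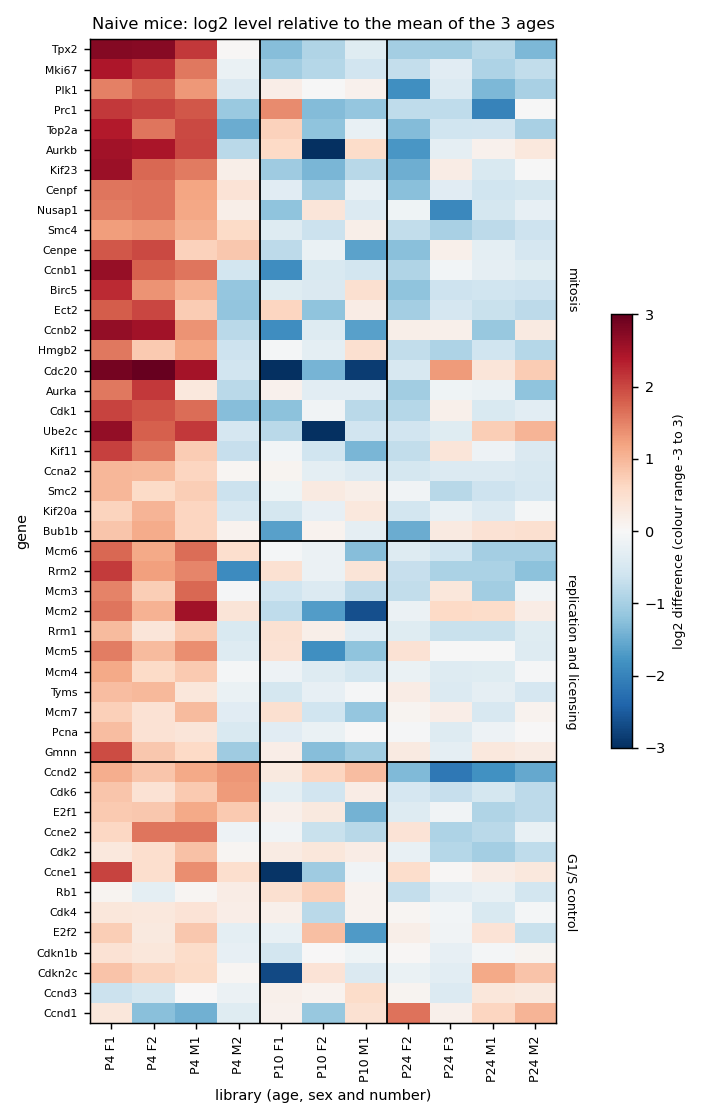
Colour is the log2 level of each of the 49 members (rows, grouped by role and sorted by their P24 against P4 change) in each of the 11 naive libraries (columns), relative to the mean of the 3 age means. Mitosis and replication genes are high in 3 of 4 P4 libraries, Ccnd2 is high at P4 and P10 and low at P24, and Ccnd1 is highest at P24.

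Genes of G1/S control did not share 1 pattern at P10. Cyclin E genes fell, with Ccne1 at 237, 82.0, 152 and 82.1 at P4 and 6.62, 27.0 and 53.4 at P10 (log2 change -2.42, SE 0.53, limma adjusted p = 0.00573), and Ccne2 with a log2 change of -1.50 (SE 0.42, adjusted p = 0.0207). Cdk6, a kinase partner of D cyclins, fell from 388, 293, 375 and 530 to 178, 146 and 255 (log2 change -0.99, SE 0.23, adjusted p = 0.00586), and P4 male 2, low for mitosis genes, had the highest value. E2f1, a transcription factor of S phase genes, fell by 1.30 on the log2 scale (SE 0.42, adjusted p = 0.0406), a call lost without P4 male 2 and held in 7 of 20 alternatives. Ccnd3 was higher (log2 change 0.68, SE 0.22, adjusted p = 0.0388), at 124, 134, 194 and 171 and then 215, 208 and 283. That rise was held in only 5 of 21 alternatives. Ccnd2 (log2 change -0.44), Ccnd1 (0.50), Cdk4 (-0.50), Cdk2 (-0.18), E2f2 (-0.84), the retinoblastoma gene Rb1 (0.42) and the CDK inhibitor genes Cdkn1b (-0.51) and Cdkn2c (-1.37) did not pass.

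At P24 about as many members were below P4 as at P10, and the D cyclin genes Ccnd2 and Ccnd1 were called in opposite directions. Of 49 members, 24 were lower than at P4 and 1 was higher (51.0%), where 19.4% of all genes were called, 7.83% lower and 11.6% higher. In 13 members every P24 library lay below every P4 library, against 11.3% of all genes. Without Aurkb, Kif23 and Ube2c these were 23 lower and 1 higher of 46. The median log2 change was -1.36 over members (-1.33 without those 3) and 0.00 over all genes. By role, 15 of 25 mitosis members (14 of 22 without those 3), 4 of 11 replication members and 5 of 13 G1/S members were lower.

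Ccnd2 (chromosome 6, 127125162 to 127152193, minus strand), which encodes cyclin D2, had the lowest p of all members. Its normalized expression was 1262, 1048, 1290 and 1465 at P4, 722, 915 and 1114 at P10, and 233, 133, 166 and 202 at P24. The P4 and P10 libraries overlapped and every P24 library lay far below both. The log2 change was -0.44 (SE 0.19, limma adjusted p = 0.143) from P4 to P10, -2.36 (SE 0.19, adjusted p = 2.88e-08) from P10 to P24 and -2.80 (SE 0.18, adjusted p = 1.21e-10) from P4 to P24. Both called falls held in all 21 alternatives. P4 male 2, lowest for mitosis genes, had the highest Ccnd2 value. Mki67 had passed the test by P10 and Ccnd2 had not, and this difference between the genes was not itself tested.

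Ccnd1 (chromosome 7, 144929931 to 144939925, minus strand), which encodes cyclin D1, was at 193, 62.5, 55.4 and 117 at P4, 165, 68.4 and 206 at P10, and 469, 169, 238 and 306 at P24. It rose from P4 to P24 (log2 change 1.54, SE 0.47, limma adjusted p = 0.0358), although P24 female 3 lay below P4 female 1. The rise was called in 13 of 21 alternatives, and it did not pass without P4 naive F2, M1 or M2, without P10 naive F1, or without P24 naive F2, M1 or M2 (log2 change 1.24 to 1.94 with any 1 library left out, adjusted p up to 0.0977). Ccnd3 had a log2 change of 0.41 between P24 and P4 (SE 0.20, adjusted p = 0.162).

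Other G1/S members were lower at P24 than at P4. Cdk6 reached 153, 133, 149 and 125 at P24 (log2 change -1.46, SE 0.21, limma adjusted p = 2.14e-05). Cdk2, the partner of cyclins E and A, was at 417, 472, 613 and 347 at P4, 397, 425 and 392 at P10, and 288, 183, 164 and 198 at P24 (P24 against P4, -1.15, SE 0.20, adjusted p = 0.000241). Like Ccnd2, it was lower at P24 than at P10 (-0.97, SE 0.22, adjusted p = 0.00473), with every P24 library below every earlier one. E2f1 and Ccne2 had log2 changes of -1.43 and -1.30. Cdk4, with 561, 549, 581 and 501 at P4 and 458, 412, 322 and 424 at P24, was lower in every P24 library but did not pass (-0.45, SE 0.20, adjusted p = 0.126). Cdkn1b, which encodes the inhibitor p27, did not pass either (-0.33, SE 0.23, adjusted p = 0.366), nor did Rb1 (-0.48, SE 0.21, adjusted p = 0.131).

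In mitosis and replication, Smc4 had the lowest p between P24 and P4, at 157, 133, 152 and 172 at P24 (log2 change -1.83, SE 0.21, limma adjusted p = 1.38e-06). Tpx2 had the most negative change of the mitosis members, -2.97 (SE 0.46, adjusted p = 0.000171). Plk1 was at 132, 158, 113 and 33.4 at P4 and 11.98, 33.9, 17.4 and 22.6 at P24 (-2.18, SE 0.43, adjusted p = 0.000692), with P4 male 2 inside the P24 range. Cenpf (-1.88), Cenpe (-1.81), Nusap1 (-1.84), Ccna2 (-1.13), Hmgb2 (-1.51), Aurka (-1.45), Ccnb1 (-1.76), Ccnb2 (-1.56), Kif11 (-1.16) and Smc2 (-0.93) were called lower as well. Kif23 (-1.93) was also called, but it was kept through P4 alone, so its fall carries no weight. Mcm6 ended at 161, 139, 104 and 104 (-2.02, SE 0.25, adjusted p = 2.41e-06). Mcm3 (-1.36), Mcm4 (-0.85) and Rrm1 (-0.93) were also lower. Pcna (-0.45, adjusted p = 0.189), Mcm2 (-1.09, adjusted p = 0.105) and Top2a (-1.98, adjusted p = 0.153) did not pass, and all 3 passed without P4 male 2.

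**Figure D3:**
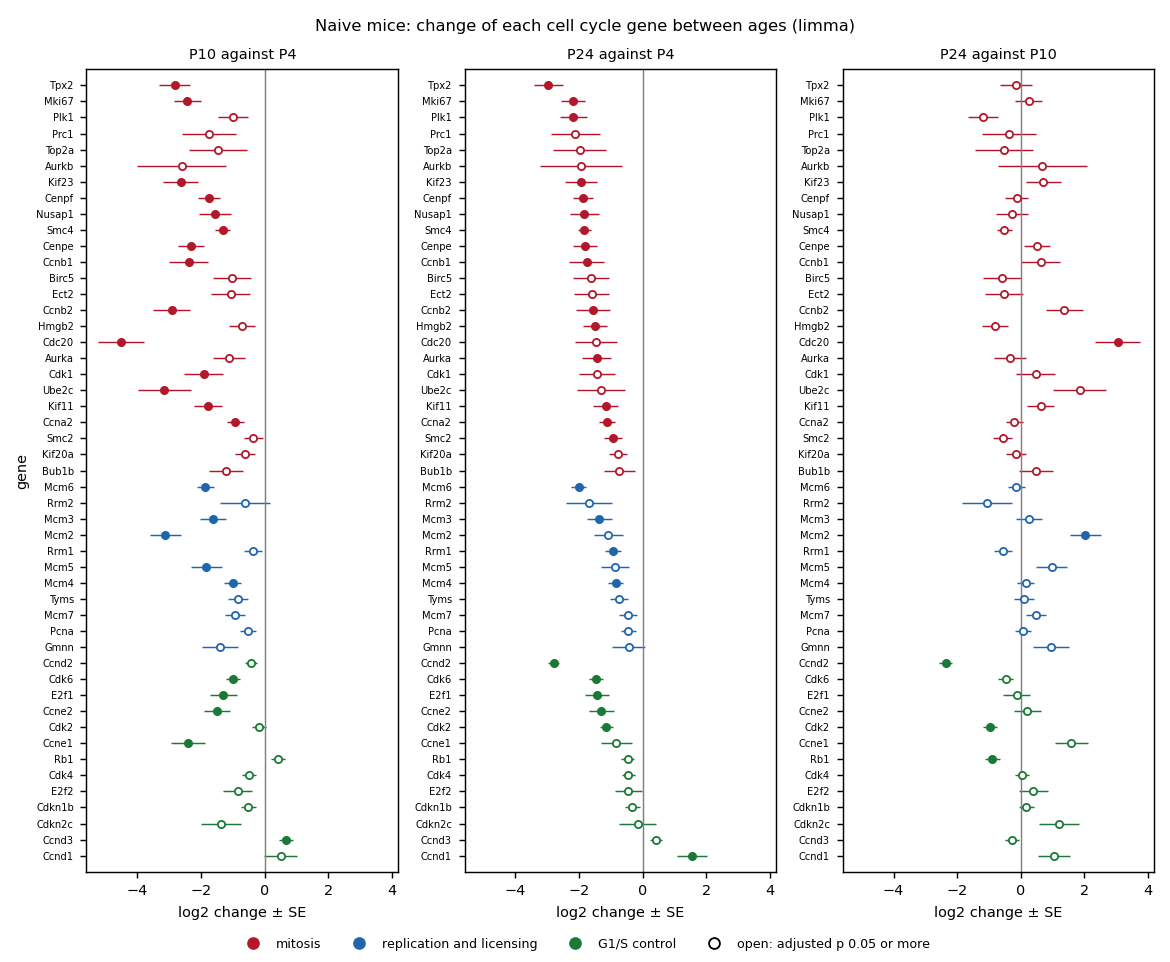
Log2 change ± SE (x axis, limma) of each of the 49 members (y axis) between ages in naive mice; filled points have an adjusted p under 0.05. Most points lie left of 0 in both comparisons with P4, and around 0 from P10 to P24, where Ccnd2 (-2.36) and Cdc20 (3.05) lie farthest out.

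Between P10 and P24 few members moved. Of 49, 3 were lower (Ccnd2, Cdk2 and Rb1) and 2 higher (Cdc20 and Mcm2), which is 10.2%, where 14.3% of all genes were called, 5.43% lower and 8.86% higher. Rb1 fell from 298, 350.4 and 227 to 128, 169, 181 and 143 (log2 change -0.90, SE 0.23, limma adjusted p = 0.0112), with no overlap. Cdc20 rose from 2.20, 9.05 and 2.66 to 17.9, 63.3, 32.8 and 43.6 (3.05, SE 0.71, adjusted p = 0.00822), and Mcm2 rose from 21.9, 11.3 and 5.31 to 33.8, 58.7, 55.9 and 45.0 (2.03, SE 0.50, adjusted p = 0.00763). Both rises started from low values. The Cdc20 call was lost without P10 naive F1 or M1, the Mcm2 call without P10 naive M1 and the Rb1 call without P24 naive F2. The library titled P10 incision but P10 naive by its characteristics was at 30.8 for Cdc20 and 50.5 for Mcm2 in this table, above all 3 P10 naive libraries. With groups by the characteristics the Mcm2 call was lost, and with the sexes of the sample sheet in addition the Cdc20 call was lost too. The count of called members was 8 without P4 naive male 2.

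Counting any difference between the 3 ages, 30 of 49 members were called (61.2%), or 28 of 46 without Aurkb, Kif23 and Ube2c, where 26.9% of all genes were. In the authors' deposited table, their test over age gave 38 of 49 members an adjusted p under 0.05 (77.6%, where 28.6% of all genes had one), with Mki67 at 4.67e-14 and Ccnd2 at 1.29e-41. Kif23 and Ube2c, kept through P4 alone, are among the 38. That table also holds the library titled P10 incision but P10 naive by its characteristics, which entered no comparison here. The authors' deposited table of ontology terms for their clusters of age-dependent genes named 12 members in cluster 2 (Tpx2, Ccna2, Birc5, Plk1, Cenpf, Nusap1, Smc4, Hmgb2, Mcm6, Cdk2, Cdk6 and Ccnd2) and 10 in cluster 3 (Mki67, Cdk1, Ccnb1, Kif11, Kif23, Cenpe, Mcm2, Mcm3, Mcm4 and Ccne1). Its term mitotic cell cycle held 50 of 555 genes of cluster 2 (the authors' adjusted p 9.07e-08) and 31 of 182 genes of cluster 3 (3.44e-11). The terms of the authors' clusters 1 and 4 named none of the members.

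The number of called members depended on single P4 naive libraries. Between P10 and P4 it was 14 without female 1 and 35 without male 2. Between P24 and P4 it was 16 without female 1 and 14 without male 1. Across all alternatives, 10 of 22 members called between P10 and P4 (leaving out Kif23 and Ube2c) were called every time, namely Mki67, Mcm2, Mcm6, Cdk6, Cdc20, Smc4, Cenpe, Tpx2, Cenpf and Ccne1. Others were less steady: Cdk1 was called in 9 of 21 alternatives, Nusap1 in 12, Ccna2 and Ccne2 in 15 and Mcm5 in 16. The calls of Cdk1 and Nusap1 were lost without any 1 of P4 naive F1, F2 or M1 or P10 naive F1 or M1, and also without some of the P24 naive libraries. Between P24 and P4, 12 of the 18 called members examined were, namely Mki67, Ccnd2, Cdk6, Cdk2, Smc4, Cenpf, Tpx2, Plk1, Cenpe, Ccna2, Nusap1 and Mcm6, while Ccne2 was called in 15, Rrm1 in 16 and Mcm3 and Mcm4 in 17.

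Other genes of the pathway, outside the 50, were also called lower more often than higher against P4. Of 135 such genes tested, 29 were lower and 1 higher at P10 than at P4 (22.2% called, where 13.7% of all genes were), 39 lower and 4 higher at P24 than at P4 (31.9%, where 19.4% were), and 7 lower and 4 higher at P24 than at P10 (8.15%, where 14.3% were). The other G1/S genes were called no more often than all genes at P10 against P4 (12.9%). Genes outside the 50 were not screened for having met the authors' limits through P4 alone. How many of their falls from P4 carry no weight for that reason is therefore unknown. Among other mitosis genes at P24 against P4 (17 of 50 lower, 2 higher), Hmmr, a spindle protein, fell from 93.0 ± 50.1 (SD, n = 4) to 15.8 ± 7.95 (n = 4; log2 change -2.37, limma adjusted p = 0.00129). Aspm, a spindle pole protein (-1.49, adjusted p = 0.0015), and Ckap2 (-1.65, adjusted p = 0.00297) also fell, while Anln, an actin-binding protein of the cleavage furrow, rose from 75.9 ± 40.3 to 177 ± 36.7 (1.42, adjusted p = 0.0102). Zwint, a kinetochore protein, also rose (0.54, adjusted p = 0.0155). Summed oligodendrocyte markers rose between the same ages, from 1330 to 2559 at P4 to 84487 to 97360 at P24. Their part in the rises of Anln and Zwint was not tested. Among other replication genes (17 of 54 lower, none higher), the clamp loader gene Rfc3 fell from 247 ± 36.7 to 77.8 ± 18.9 (-1.67, adjusted p = 1.97e-05), with the ligase gene Lig1 (-1.62) and the primase gene Prim1 (-1.37). Among other G1/S genes (5 of 31 lower, 2 higher), Cdkn1a, which encodes the CDK inhibitor p21, rose from 258 ± 43.8 to 786 ± 261 (1.55, adjusted p = 0.000214). Trp53, the p53 gene that activates it, also rose (0.63, adjusted p = 0.0281), and the antiproliferative gene Btg2 fell from 391 ± 101.5 to 139 ± 3.52 (-1.45, adjusted p = 9.67e-05). Fbxw7, a ubiquitin ligase subunit that acts on cyclin E (-0.94), and E2f7 (-1.37) fell too. The P24 means of Hmmr (15.8) and E2f7 (17.0) lay under the authors' minimum level. Whether these genes were kept through P4 alone was not tested. Between P4 and P10 the lowest p among falls belonged to the mitosis genes Aspm (-2.32), Ncaph (-2.70) and Ckap2 (-1.89), the replication genes Dek (-1.29), Lig1 (-1.63) and Cdc6 (-2.16), and the G1/S genes Lin9 (-1.88), Btg1 (-0.75) and Cdc25a (-1.19). The gene that rose was Pttg1, which encodes securin (0.71, adjusted p = 0.00584). From P10 to P24, Anln (2.93, adjusted p = 4.7e-05) and Cdkn1a (1.77, adjusted p = 0.000283) rose and Btg2 fell by 1.46 on the log2 scale (adjusted p = 0.000481).

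One day after incision, at P4, no member passed. By limma 0 of 48 members were called, where 4 of all 14243 genes (0.0281%) were. Of the 48, 6 had an unadjusted p under 0.05 (8.01% of all genes did), 1 was higher in every incised library and 1 lower, where 5.9% of all genes had groups that did not overlap, 3.08% higher and 2.82% lower. The median log2 change of the members was 0.10, and it was -0.40 without naive male 2. Summed markers of mural cells (6 of 7 listed, none at 0) ran from 291 to 460 in naive and from 654 to 954 in incised mice, and those of oligodendrocyte precursors (10 of 10, none at 0) from 1764 to 1946 and from 2057 to 3021. Their part in the values below was not tested.

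The 2 members with the lowest p at P4 were both D cyclins, in opposite directions. Ccnd2 was at 1068, 883, 1085 and 1238 in naive and at 557, 653, 691 and 526 in incised mice. Every incised library was below every naive one, and the log2 change was -0.87 (SE 0.18, limma adjusted p = 0.182). Ccnd1 was at 163, 52.6, 46.5 and 98.8 in naive and at 248, 328, 405 and 140.3 in incised mice (log2 change 1.76, SE 0.45, adjusted p = 0.329). Only incised male 3 fell within the naive range. In the authors' deposited table both were called, Ccnd2 with the authors' log2 change of -0.87 (the authors' adjusted p 0.00834) and Ccnd1 with 1.72 (0.0307), among 0.534% of all genes. They were the only members called there. The log2 change stayed between -0.91 and -0.79 for Ccnd2 and between 1.41 and 2.03 for Ccnd1 with any 1 library left out, and neither was called by limma under any of 16 alternatives.

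**Figure D4:**
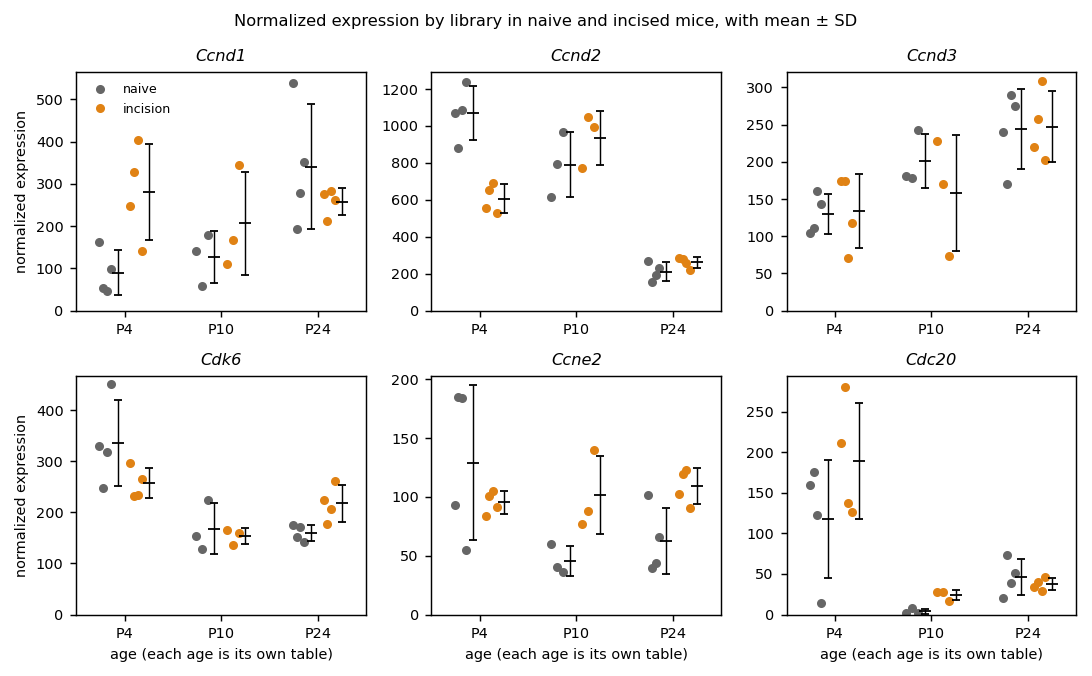
Normalized expression (y axis, linear from 0) of 6 members in each naive (grey) and incised (orange) library at P4, P10 and P24, with mean ± SD beside the points; each age comes from a separately scaled table. At P4, Ccnd2 lies lower in all 4 incised libraries (526 to 691) than in the naive ones (883 to 1238).

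Among the other P4 values, E2f2 was higher in every incised library, at 75.7, 103, 90.7 and 123 with 69.0, 50.4, 72.3 and 33.4 in naive mice (log2 change 0.82, SE 0.39, limma adjusted p = 0.623). E2f1 (-1.13, SE 0.45, adjusted p = 0.556), Rb1 (-0.72, SE 0.32, adjusted p = 0.593), Cdc20 (1.40, SE 0.59, adjusted p = 0.574) and Ube2c (1.42, SE 0.61, adjusted p = 0.584) had overlapping groups. The Cdc20 value rested on naive male 2, at 14.0 with 122 to 175 in the other naive libraries, and was 0.40 (SE 0.38) without it. Without that library Ube2c was at 0.64 (SE 0.56) and E2f2 at 0.45 (SE 0.41). Mki67 was at 535, 449, 295 and 85.4 in naive and at 401, 476, 286 and 188 in incised mice (0.47, SE 0.41, adjusted p = 0.805). Its 4 incised libraries lay inside the naive range, and the change was -0.14 (SE 0.34) without naive male 2. Top2a (0.59, SE 0.67), Pcna (0.24, SE 0.30), Mcm2 (-0.85, SE 0.60), Cdk4 (0.17, SE 0.21), Cdk6 (-0.39, SE 0.25) and Cdkn1b (0.09, SE 0.29) did not pass either. Of the replication members, Mcm5 (0.70, SE 0.52) was farthest up, and of the mitosis members Ect2 (-0.64, SE 0.52) was farthest down, and their groups overlapped. Without naive male 2, Top2a turned to -0.59 (SE 0.29), Pcna to -0.01 (SE 0.33) and Cdkn1b to -0.13 (SE 0.34). Without it Mcm5 was at 0.02 (SE 0.47), Mcm2 at -1.52 (SE 0.61), Ect2 at -1.33 (SE 0.49) and Cdk6 at -0.18 (SE 0.28), and none of these was called.

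At P10, 7 days after incision, no member and no gene passed. With 3 mice in each group, 0 of 45 members and 0 of 13699 genes were called by limma, and 2 members and 602 genes (4.39%) had an unadjusted p under 0.05. The authors' deposited table called no member and 2 genes (0.0146%). That table also holds the 2 libraries with conflicting labels, which entered no comparison here. In 4 of 45 members the groups did not overlap, a share near the 9.48% of all genes in either direction. All 4 were higher in incised mice, as were 5.02% of all genes. Cdc20 was at 1.86, 7.78 and 2.29 in naive and at 27.7, 27.8 and 16.7 in incised mice (log2 change 2.65, SE 0.94, limma adjusted p = 0.9998). Ube2c was at 5.59, 0 and 6.87 and at 36.6, 12.2 and 16.9 (2.42, SE 1.06, adjusted p = 0.9998). The naive values of both were low, as in the age table, with means of 3.97 and 4.16, under the authors' limit of 20. Ccne1 (1.32, SE 0.69) and Ccne2 (1.11, SE 0.56), the cyclin E genes, were also higher in all 3 incised libraries. The naive mean of Ccne1 was 24.9 with an SD of 20.2, past the authors' limit on spread. Cdc20, Ube2c and Ccne1 were thus kept at P10 through the incised group alone, and their higher values there carry no weight. These 4 patterns rest on how the conflicting labels are read. The library that its characteristics call P10 naive was at 26.2 for Cdc20, 32.2 for Ube2c, 54.7 for Ccne1 and 99.7 for Ccne2 in this table, inside the range of the incised libraries for each of the 4 genes. With groups by the characteristics the log2 change was 2.22 for Cdc20, 1.79 for Ube2c, 0.92 for Ccne1 and 0.84 for Ccne2. With a pseudocount of 10 it was 1.37 for Cdc20 and 1.22 for Ube2c. Mki67 was at 46.6, 54.0 and 66.7 in naive and at 73.1, 26.2 and 85.9 in incised mice (0.03, SE 0.61), with overlap. Ccnd2 (0.11, SE 0.23) and Ccnd1 (0.34, SE 0.45) had overlapping groups, as did Pcna (-0.78, SE 0.39), Rrm2 (-0.58, SE 0.45), Mcm7 (0.74, SE 0.44), Smc2 (-0.70, SE 0.39), Top2a (0.44, SE 0.53), Cdk4 (0.06, SE 0.33), Cdk6 (-0.18, SE 0.41), Cdkn1b (0.44, SE 0.42) and Rb1 (-0.02, SE 0.35).

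At P24, 21 days after incision, again no member passed. By limma 0 of 48 members and 0 of 15246 genes were called, while 3 members and 1525 genes (10%) had an unadjusted p under 0.05. The authors' deposited table called no member and 8 genes (0.0525%). Ccne2 had the lowest p, at 102, 39.7, 43.8 and 65.6 in naive and 103, 120, 123 and 90.6 in incised mice (log2 change 0.88, SE 0.27, limma adjusted p = 0.338), with naive female 2 inside the incised range. Cdk6 was the only member with groups that did not overlap (4.96% of all genes, 2.42% higher), at 175, 152, 172 and 142 in naive and 225, 177, 207 and 262 in incised mice (0.43, SE 0.18, adjusted p = 0.451). Mcm2 was at 39.5, 68.4, 66.1 and 52.2 in naive and 44.9, 32.4, 27.5 and 19.6 in incised mice (-0.87, SE 0.32, adjusted p = 0.392). Only incised female 1 was above a naive library. Mki67 (-0.21, SE 0.25), Top2a (-0.15, SE 0.26), Pcna (-0.08, SE 0.16), Ccnd1 (-0.31, SE 0.25), Ccnd2 (0.33, SE 0.18), Cdk4 (-0.11, SE 0.14), Cdkn1b (0.27, SE 0.17) and Rb1 (-0.10, SE 0.19) overlapped. Summed oligodendrocyte markers (10 of 10 listed, none at 0) ran from 97729 to 111160 in naive and from 73784 to 88001 in incised mice at this age, those of oligodendrocyte precursors (10 of 10, none at 0) from 6720 to 8608 and from 4980 to 6346, and their part was not tested.

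**Figure D5:**
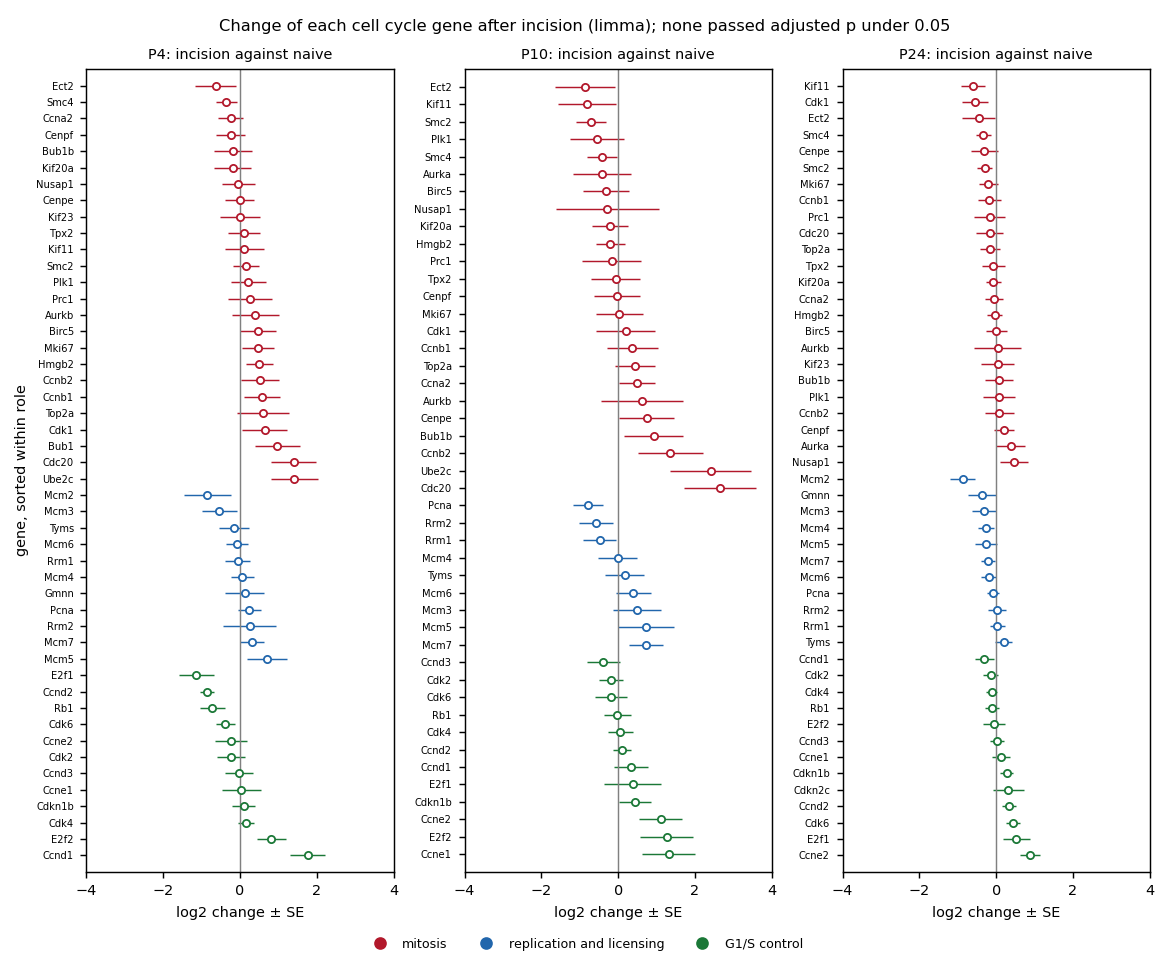
Log2 change ± SE (x axis, limma) of each member between incised and naive mice at P4 (48 members), P10 (45) and P24 (48), sorted within role; all points are open because none passed. At P4 Ccnd1 (1.76) lies farthest up and E2f1 (-1.13) farthest down, and at P10 Cdc20 (2.65) and Ube2c (2.42) lie farthest up. Cdc20 and Ube2c were kept at P10 through the incised group alone. Ccnd2 (-0.87), with the lowest p at P4, lies less far down than E2f1.

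The effect of incision was also compared between ages in 1 model over the 43 members found in all 3 incision tables. By limma 0 of 43 members differed (5 with an unadjusted p under 0.05, as had 9.8% of all genes), where 13 of 13200 genes (0.0985%) did. Ccnd2 came closest, with an adjusted p of 0.0913 for any difference between ages. Its effect at P24 exceeded that at P4 by 1.18 on the log2 scale (SE 0.26, adjusted p = 0.079) and its effect at P10 exceeded that at P4 by 1.06 (SE 0.28, adjusted p = 0.117). For Ccnd1 the effect at P24 minus that at P4 was -1.96 (SE 0.59, adjusted p = 0.316), and for Cdc20 that at P24 minus that at P10 was -2.84 (SE 0.85, adjusted p = 0.825). This test sets effects from separately scaled tables side by side. Cdc20 was kept at P10 through the incised group alone, so its difference carries no weight. Of the other pathway genes, 0 of 136 were called at P4, 0 of 124 at P10 and 0 of 132 at P24 by limma, and 10, 7 and 6 of them had an unadjusted p under 0.05.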

How the data were processed

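The authors sequenced nuclear RNA of sorted nuclei and deposited, per the file headers, 4 tables of DESeq2-normalized expression, a signal per gene and library, which had been made with STAR, Salmon and DESeq2 on mm10, per the submitters' processing notes (versions not given in the sources used here). Their filters, per the deposited description, were at least 10 counts in at least 4 samples, and later, in at least 1 group, normalized expression over 20 with a coefficient of variation below 0.65. Beside these values stand the deposited log2 fold changes with the deposited p-values (raw and adjusted), quoted only where named as the authors'. The values are not whole numbers, reads could not be recovered, and depth is unknown, so the number of mice limits the precision. For each gene with a mean of at least 10, limma 3.58.1 (R 4.3.3, statmod 1.5.0, trend and robust settings) was run on log2(value + 1), and its terms were the group and the title's sex, which the sample sheet contradicts for 2 of the libraries in groups (P10 incised male 1 and P24 naive male 1, female there), and p-values were Benjamini-Hochberg adjusted over all genes tested, 2-sided, called under 0.05. Fold changes are on this scale, which understates changes of low genes. The 3 ages of naive mice shared 1 fit. The fits were tested on simulated data. The members and gene lists were chosen with earlier results of these data known. Named genes were 10 fixed members, the called members (where over 24 were called, those of lowest p per role), and otherwise the lowest p per role and direction; values of other pathway genes are mainly given for P24 against P4. Alternatives were another pseudocount (10), no filter or a mean of 50, no trend, no or other sex term, quantile normalization, a replicate block, other readings of the conflicting labels and leaving out each library. Gene symbols were matched to RefSeq promoters by symbol.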

Additional observations from a re-analysis of the deposited data

Results flagged for a closer look

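Over 162 groups of 4 libraries examined (named members and role means), 4 held a library far from the others by Dixon's criterion (its gap to the next library as a share of the range), where chance gives about 1 group in 20. In the P4 table, incised male 1 was low for Cdk4, at 366 normalized expression with 548 to 564 in the other incised libraries. Naive male 1 was high for E2f1 at P4, at 68.4 with 53.6 to 54.3 in the others of that table, and the same library gave 82.2 with 64.0 to 65.1 in the others in the age table. For Ccnb2, P24 naive male 1 was low, at 11.6 with 29.9 to 32.3 in the other P24 naive libraries of the age table. P4 naive male 2, which was low for mitosis and replication genes, did not pass this criterion for any role mean.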

How the results depend on the processing

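No result reversed its direction as a called value. Called members in naive mice numbered 19 to 25 (P10 against P4), 17 to 28 (P24 against P4), 3 to 7 (P24 against P10) and 24 to 32 (any age) under alternatives that kept all libraries; the value of 3 arose with the groups of the characteristics and the sexes of the sample sheet, an alternative chosen after seeing the data. Leaving out each library gave 14 to 35, 14 to 36, 4 to 8 and 20 to 41. Incision counts of members were 0 under every alternative run, and those of all genes ran from 0 to 15 at P4, 0 to 18 at P10, 0 to 16 at P24 and 1 to 42 for a difference between ages. With the replicate block (sex and number of the title), 25, 17, 7 and 30 members were called in naive mice and 0 after incision. Same-numbered naive and incised libraries correlated from -0.123 to 0.026 in their deviations, so no pairing by number was seen. So few pairs cannot settle whether the mice were paired. All genes called in naive mice ran from 1347 to 2283, 2227 to 3561, 1287 to 2437 and 3029 to 4637. The groups by title could not be run at P24. The label conflicts, the dependence of many calls on single P4 naive libraries, groups of 3 at P10 and unknown depth limit these values.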

Other observations

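The 2 libraries with conflicting labels had these values. The library whose title gives P10 incision and whose characteristics give P10 naive had, in the P10 table, normalized expression of 68.1 for Mki67, 26.2 for Cdc20, 760 for Ccnd2, 109 for Ccnd1 and 99.7 for Ccne2. The library whose title gives P24 naive and whose characteristics give P10 incision was in the P10 table, with 103 for Mki67, 37.0 for Cdc20, 756 for Ccnd2, 130.04 for Ccnd1 and 92.8 for Ccne2. The Ccnd2 values of both lay within the range of the P10 libraries (615 to 1048).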
